A study of Homo sapiens with 2 samples.

Results

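The replication-dependent histone genes encode the linker histone H1 and the core histones H2A, H2B, H3 and H4 that package newly copied DNA. Their expression was compared between HCT116 cells that stably overexpressed HOXA5 short RNA and mock-transfected HCT116 cells. Members were all genes whose current RefSeq symbol is H1-1 to H1-6 or begins with H2AC, H2BC, H3C or H4C and a number, which 84 RefSeq records met. Of these, 67 genes were represented on the array by 77 probes, and 56 genes with 65 probes were well above background. The naming rule also admits non-coding records. Of the records without a probe, 12 are pseudogenes and H2BC6-AS1 is a non-coding RNA. These 56 genes are a small part of the 12577 named genes detected among 21614 named genes on the array. All 65 probes were detected on both arrays, so no histone gene was seen on only 1 array.

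HCT116 is a long-established line of human colon cancer cells, and HOXA5 short RNA is a transcript of the HOXA5 locus that lacks the first exon of HOXA5. Both cell populations carried a pEB vector, either the empty vector (genotype control, mock) or the vector with HOXA5 short RNA (genotype overexpression of HOXA5 short RNA), and both had been kept in blasticidin for 2 weeks to select the transfected cells. Cy3-labeled RNA of each population was hybridized to 1 single-color Agilent SurePrint G3 array, and both arrays lay on 1 slide. There was 1 array per group, so no difference was tested and each one describes this pair of arrays. The labels do not say whether the stable cells were a pool or a single clone.

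Replication-dependent histone genes are transcribed in S phase, when the cell copies its DNA, and most of them lie in clusters on chromosomes 6 and 1. Their mRNAs end in a stem-loop bound by SLBP, the stem-loop binding protein, instead of a poly(A) tail, and they are rapidly degraded when DNA synthesis stops. The labeling kit named in the labels begins with an oligo(dT) primer, so these mRNAs can be copied less completely than polyadenylated ones. Differences below are therefore read between arrays. The brightness or detection of a histone probe is no measure of its level against other genes. The coding sequences within a core histone family are similar. The probe sequences were not used here, so a probe named for 1 gene may also read others of its family.

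Values are log2 processed signals less the 75th percentile of the array, and each difference is HOXA5 short minus mock on the log2 scale. The 75th percentile was 35.6 for mock cells and 44.0 for HOXA5 short cells, and 36.4% and 37.5% of the probes were well above background. The scanner files give an error for each spot, and 593 probes printed in several spots give a second measure of error, for which the difference of a single spot had an SD of 0.26. This SD ran from 0.31 at signals of 5 to 30 to 0.23 at signals above 1000, and it includes no spread between cultures. The HOXA5 probe, read as a check of the labels, had a signal of 39.4 ± 4.32 (scanner error) in mock cells and 346 ± 34.6 in HOXA5 short cells, a difference of 2.83, although the part of the locus that this probe reads was not checked. Of 10 colon epithelial markers, 7 were detected on both arrays (CDH1, CDX1, CDX2, EPCAM, KRT8, KRT18 and KRT19) and CEACAM5, LGR5 and VIL1 were not. Of the markers of other cell types, 0 of 4 for leukocytes, 0 of 3 for endothelium and 1 of 4 for fibroblasts was detected (COL1A1, 16.7 and 22.6).

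Of the 65 histone probes, 33 were higher and 32 lower in HOXA5 short cells, with a median difference of 0.04 and quartiles of -0.16 and 0.21. Over all 17938 probes compared, the median was -0.02, with quartiles of -0.16 and 0.14. The histone median was thus 0.06 above the median of all probes. When probes not above background were kept, the histone median was -0.03 and that of all probes -0.15, so the histone median lay 0.12 above it. The differences of 87.7% of the histone probes lay within 0.5 of 0, against 90.8% of all probes. The histone probes spread a little more widely, with an interquartile range of 0.37 against 0.30. Scaling to the RNA spike-ins shifted all probes by 0.47, and with it the histone median was 0.51 and 7 histone probes were at least 2-fold higher.

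A few histone probes stood apart on the higher side. Of the 65 probes, 3 (4.62%) were at least 2-fold higher, where 190 of all probes (1.06%) were, and 0 were at least 2-fold lower, where 57 of all probes (0.318%) were. The shares over all probes include position effects. Of 247 probes at least 2-fold different in either direction, 108 lay in uneven zones of the array, defined in the processing section. These zones held 5.75% of all probes compared. The 3 histone probes lay outside them, but each had 1 neighboring spot past 2-fold. At 1.5-fold, 6 histone probes (9.23%) were higher against 3.95% of all probes, and 1 (1.54%) was lower against 2.32%. The same probes lay beyond 2 single-spot SDs for their brightness, 6 higher against 4.74% of all probes and 1 lower against 2.77%. They were the probes of H2AC8, H4C1, H4C13, H2AC11, H3C10 and H2BC8 on the higher side and of H3C4 on the lower side. Since several of these probes may read transcripts of more than 1 gene, the counts are of probes and not of independent genes.

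**Figure D1:**
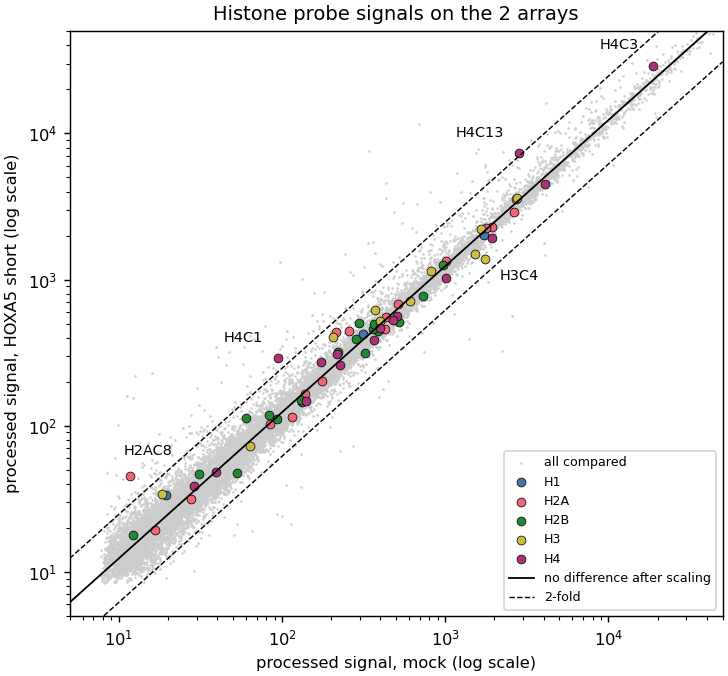
Processed signal of each probe in mock cells (x axis) and HOXA5 short cells (y axis), both on log scales, with all 17938 probes compared in gray and the 65 histone probes in color by family. The solid line marks no difference after scaling and the dashed lines a 2-fold difference. Most histone probes lie along the solid line, with H2AC8, H4C1 and H4C13 above the upper dashed line.

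The largest difference was that of H2AC8, a gene of core histone H2A (accession NM_021052). It gave a signal of 11.7 ± 1.97 (scanner error) in mock cells and 45.1 ± 4.83 in HOXA5 short cells, so the HOXA5 short signal was the higher one by more than both errors. The difference was 1.64, or 3.13-fold, against a single-spot SD of 0.31 at this brightness. The mock signal was close to the dim end of the detected probes. With normexp and its offset of 50 in place of the scanner's correction, the difference was 0.43. The offset is added to both signals and by itself makes the differences of dim probes smaller, here and in the normexp values below. The 29 well-measured spots around it had a median difference of 0.30, and after the median of its neighbors was subtracted the difference was 1.34. Of these neighbors, 1 was past 2-fold. Whether unevenness of the array had a part in the value was not tested.

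H4C1 and H4C13, which encode the same core histone H4 protein, each had 1 probe that was at least 2-fold higher and 1 that was not. The brighter H4C1 probe (NM_003538) gave 94.1 ± 9.56 in mock cells and 290 ± 29.1 in HOXA5 short cells, a difference of 1.32 or 2.50-fold. The dimmer H4C1 probe gave 39.6 ± 4.43 and 47.9 ± 5.30, a difference of -0.03. The probes therefore disagreed on whether H4C1 was higher at all, with a gap of 1.35 between them. The brighter H4C13 probe (NM_003546) gave 2824 ± 282 and 7287 ± 729, a difference of 1.06 or 2.09-fold, and the dimmer one gave 28.9 ± 3.40 and 38.5 ± 4.31, a difference of 0.11. Again only the brighter probe was clearly higher in HOXA5 short cells, and the gap was 0.96. Around the brighter probes, 1 of 29 neighbors was past 2-fold for H4C1 and 1 of 24 for H4C13. Of the 65 histone spots, 49 had no neighbor past 2-fold. Whether unevenness of the array had a part in these values was not tested. With the median of the neighbors subtracted the brighter H4C13 probe was at 0.90, and with normexp the brighter H4C1 probe was at 0.98, both just short of 2-fold. By the mean of their probes, H4C1 was at 0.65 and H4C13 at 0.59, so that H2AC8 was the 1 gene of 56 at least 2-fold higher by gene mean, where 77 of 11994 named genes (0.642%) were.

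H3C4, a gene of core histone H3 (NM_003530), was the 1 histone gene at least 1.5-fold lower. It gave 1754 ± 175 in mock cells and 1390 ± 139 in HOXA5 short cells, and the difference was -0.64, or 1.56-fold, with a single-spot SD of 0.23. The raw signals already ran in this direction, although the HOXA5 short array was the brighter one. Of the 26 spots around it, 1 was past 2-fold, and their median difference was -0.14. H3C4 was lower under every setting tried but short of 1.5-fold under several of them, at -0.54 with scaling to the median, -0.56 with normexp, -0.50 with the median of its neighbors subtracted and -0.17 with scaling to the spike-ins.

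The promoters of the histone genes are short and dense in regulatory motifs, and many H2A and H2B genes lie head to head with a common promoter between them. The TATA box positions the transcription machinery, the CCAAT box is bound by NF-Y, and the octamer is bound by OCT1, the product of POU2F1, and is known from H2B promoters. RefSeq promoter windows on GRCh38.p14 from 250 bases before to 50 after the start were at hand for 52 of the 56 genes (56 windows), and not for H2AC12, H3C12, H4C1 and H4C3. The TATA box was searched as TATAAA, the CCAAT box by its name and the octamer as ATTTGCAT, each on both strands, and none of these motifs contains another. The TATA box was in 66.1% of the histone windows and 11.5% of all 35116 windows, the CCAAT box in 87.5% and 34.6%, and the octamer in 41.1% and 1.77%. By family, the octamer was in 13 of 18 H2B windows, 9 of 13 H2A windows, 1 of 12 H3 windows and 0 of 10 H4 windows. The CCAAT box was in every H1, H2A, H2B and H3 window but in 3 of 10 H4 windows. Windows of neighboring genes overlap, so they are not independent, and a match is a description of the letters only.

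The sequences between the start sites of the pair with the largest difference, of a pair whose genes differed in direction and of the lowest pair are shown first, on the plus strand. The 250 bases before the starts of H4C13 and H3C4, the genes at the top and the bottom of the H4 and H3 probes with a window, follow on the minus strand, on which both genes lie. H3C4 has a second start in the table, whose window overlaps the region between H2AC7 and H2BC7 and is not shown. It held 1 octamer, 3 CCAAT boxes and 0 TATA boxes. Capitals mark the TATA box, the CCAAT box and the octamer on either strand.
H2AC8 and H2BC8, GRCh38.p14 chr6:26216689-26216920, plus strand: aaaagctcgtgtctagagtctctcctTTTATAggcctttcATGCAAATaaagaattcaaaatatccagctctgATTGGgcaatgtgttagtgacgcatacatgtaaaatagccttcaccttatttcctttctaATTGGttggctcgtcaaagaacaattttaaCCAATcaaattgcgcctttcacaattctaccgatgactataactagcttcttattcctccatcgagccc
H2AC11 and H2BC11, GRCh38.p14 chr6:27132796-27133042, plus strand: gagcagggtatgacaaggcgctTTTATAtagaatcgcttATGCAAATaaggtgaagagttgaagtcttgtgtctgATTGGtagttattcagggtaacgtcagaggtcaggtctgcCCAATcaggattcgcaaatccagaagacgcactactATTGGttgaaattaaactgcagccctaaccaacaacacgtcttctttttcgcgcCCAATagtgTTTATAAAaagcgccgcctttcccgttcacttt
H2AC25 and H2BC26, GRCh38.p14 chr1:228457874-228458102, plus strand: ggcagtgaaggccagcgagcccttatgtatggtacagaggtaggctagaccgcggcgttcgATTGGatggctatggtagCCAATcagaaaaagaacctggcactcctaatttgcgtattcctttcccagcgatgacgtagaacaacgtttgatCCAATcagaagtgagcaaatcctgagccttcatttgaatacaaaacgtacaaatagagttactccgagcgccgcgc
H4C13, GRCh38.p14 chr6:27873535-27873784, minus strand: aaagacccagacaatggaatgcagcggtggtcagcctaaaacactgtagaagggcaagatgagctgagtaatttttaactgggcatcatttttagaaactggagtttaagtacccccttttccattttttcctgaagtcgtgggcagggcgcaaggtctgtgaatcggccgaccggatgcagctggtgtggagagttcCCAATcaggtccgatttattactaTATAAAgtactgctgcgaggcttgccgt
H3C4, GRCh38.p14 chr6:26197287-26197536, minus strand: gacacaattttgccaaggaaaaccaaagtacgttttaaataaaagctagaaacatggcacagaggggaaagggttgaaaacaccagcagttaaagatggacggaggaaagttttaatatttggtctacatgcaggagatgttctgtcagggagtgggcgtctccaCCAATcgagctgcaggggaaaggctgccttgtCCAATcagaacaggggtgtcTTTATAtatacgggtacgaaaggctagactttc

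In these letters, the regions of H2AC8 with H2BC8 and of H2AC11 with H2BC11 each held 1 octamer, and that of H2AC25 with H2BC26 held 0 octamers and 0 TATA boxes but 3 CCAAT boxes. Among genes with a window, 11 H2A and H2B pairs had at most 250 bases between their starts, from 193 to 247. Pairs farther apart were not counted. Of these 11, 11 had a CCAAT box, 8 an octamer and 8 a TATA box between the starts. Both genes were compared in 10 pairs.

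Both genes were higher in 4 pairs and lower in 2, and they lay on opposite sides of 0 in 4. H2AC8 was at 1.64 and its partner H2BC8 at 0.62, the pair with both genes beyond 1.5-fold. H2BC8 had a signal of 60.0 ± 6.28 in mock cells and 114 ± 11.5 in HOXA5 short cells, so it too was higher by more than both scanner errors. With normexp both genes were short of 1.5-fold, at 0.43 and 0.40, and with the median of its neighbors subtracted H2BC8 was at 0.56. H2AC11 was at 0.74, with signals of 214 ± 21.5 and 440 ± 44.1, while H2BC11 was at -0.16, with 132 ± 13.3 and 146 ± 14.7. The H2AC11 spot lay in an uneven zone of the array, with 2 of its 15 neighbors past 2-fold. H2BC14 was at 0.46 and H2AC14 at -0.18, and in the lowest pair H2BC26 was at -0.46 and H2AC25 at -0.10. The other pairs lay between -0.13 and 0.29, within about the spread of a single spot. Those near 0 change side with the scaling.

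**Figure D2:**
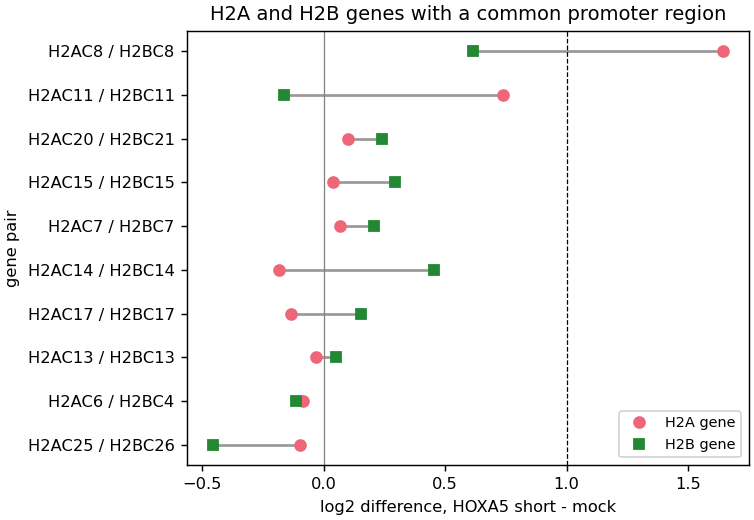
Log2 difference (HOXA5 short minus mock, x axis) of the H2A gene (circle) and the H2B gene (square) of each of 10 divergent pairs (y axis), 1 value per gene, with a dashed line at 2-fold higher. Only the pair of H2AC8 (1.64) and H2BC8 (0.62) lies far to the right with both genes.

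Among the linker histones, which bind the DNA between nucleosomes, 3 of 6 genes were detected. H1-2 gave 1721 ± 172 in mock cells and 2021 ± 202 in HOXA5 short cells, a difference of -0.07. H1-4 was at 0.13, with signals of 315 ± 31.5 and 424 ± 42.4. H1-3 was dim, at 19.5 ± 2.74 and 33.3 ± 3.91, with a difference of 0.47. None of these passed 1.5-fold, and with normexp H1-3 was at 0.08.

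For H2A, 14 of 17 genes were detected with 16 probes, of which 7 were higher and 9 lower. Their median was -0.04, and it turned to 0.06 when the arrays were scaled to the median and to 0.04 with normexp. After H2AC8 and H2AC11, the next highest was H2AC21, with 258 ± 25.8 in mock cells and 443 ± 44.3 in HOXA5 short cells and a difference of 0.48. H2AC19 was the lowest at -0.33, with 116 ± 11.7 and 114 ± 11.5. The brightest H2A spot was that of H2AC14, with 2644 ± 264 and 2876 ± 288 and a difference of -0.18. Apart from these, the H2A probes lay between -0.20 and 0.12.

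For H2B, 16 of 18 genes were detected with 18 probes, of which 10 were higher and 8 lower. Their median was 0.05, and it turned to -0.02 over signals above the median. H2BC14 was at 0.46, with 297 ± 29.7 in mock cells and 502 ± 50.3 in HOXA5 short cells. H2BC26 was the lowest at -0.46, with 53.0 ± 5.57 and 47.7 ± 5.14. H2BC9 followed at -0.33, with 519 ± 51.9 and 510 ± 51.0. H2BC18 was lower on both of its probes, at -0.33 (320 ± 32.1 and 316 ± 31.6) and -0.22 (730 ± 73.0 and 772 ± 77.2). With the medians of their neighbors subtracted these probes were at -0.08 and -0.18. H2BC13 gave 975 ± 97.5 and 1248 ± 125, a difference of 0.05. No H2B probe other than that of H2BC8 lay beyond 2 single-spot SDs.

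For H3, 11 of 12 genes were detected with 12 probes, of which 8 were higher and 4 lower, with a median of 0.09. H3C10 was higher on both of its probes. Its brighter probe gave 207 ± 20.8 in mock cells and 405 ± 40.6 in HOXA5 short cells, a difference of 0.67, and its dimmer probe gave 18.5 ± 2.45 and 34.2 ± 3.86, a difference of 0.58. The probes thus showed a like difference, of which only the brighter one passed 1.5-fold, and with normexp the dimmer probe was at 0.18. None of the 29 spots around either probe was past 2-fold. H3C1 was at 0.43, with 372 ± 37.2 and 618 ± 61.9. On the lower side H3C2, at -0.34 with 1520 ± 152 and 1484 ± 148, came next to H3C4. With the median of its neighbors subtracted H3C2 was at -0.11. H3C13 and H3C15, which encode the H3.2 form and lie on chromosome 1, were at 0.09 and 0.08, with signals of 2739 and 2712 in mock cells and 3610 and 3531 in HOXA5 short cells.

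For H4, 12 of 14 genes were detected with 16 probes, of which 6 were higher and 10 lower. Their median was -0.09, and it turned to 0.01 with scaling to the median. The family thus held 2 probes past 2-fold beside mostly small differences below 0. H4C3 was the brightest histone spot, at 18773 ± 1877 in mock cells and 29125 ± 2912 in HOXA5 short cells, with a difference of 0.33. H4C8 was at 0.35, with 174 ± 17.5 and 273 ± 27.4. H4C5 was the lowest at -0.32, with 1942 ± 194 and 1917 ± 192. The raw signals of H4C5 were nearly equal, as were those of H2AC19, H2BC9, H3C2 and the dimmer H2BC18 probe above. These differences came from the scaling, because the HOXA5 short array was the brighter one. With scaling to the spike-ins these 5 probes lay between 0.13 and 0.14. H4C6 and H4C11 were at -0.23, the former in an uneven zone with 2 of 24 neighbors past 2-fold. Their signals were 140 ± 14.1 and 147 ± 14.8 for H4C6 and 367 ± 36.7 and 385 ± 38.5 for H4C11. H4C12 was lower on both of its probes, at -0.28 (1013 ± 101 and 1030 ± 103) and -0.10 (227 ± 22.7 and 261 ± 26.2).

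**Figure D3:**
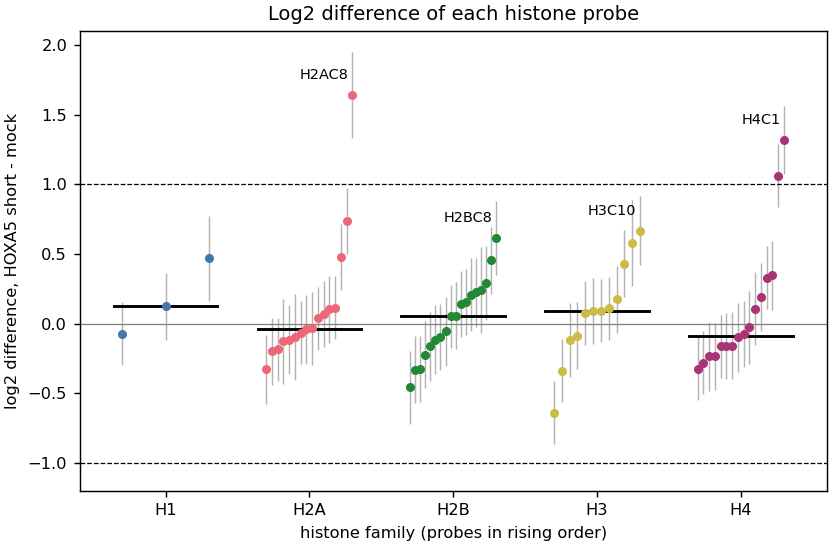
Log2 difference (HOXA5 short minus mock, y axis) of each histone probe (points, in rising order within a family, x axis) with the SD of a single spot at that brightness as error bars, the family median as a black bar and dashed lines at a 2-fold difference. The H2AC8 probe and 2 H4 probes lie above the upper line, and all family medians lie between -0.09 and 0.13.

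Altogether 9 histone genes had 2 compared probes. In 7 of them the gap between the probes was at most 0.18, and H4C1 and H4C13 were the other two. The median gap was 0.10, against 0.21 for 2208 named genes with 2 compared probes, of which 17.9% had a gap of 0.5 or more. H2BC12 was at 0.06 (359 in mock and 460 in HOXA5 short cells) and 0.14 (286 and 389). H2AC6 was at -0.04 (137 and 165) and -0.13 (27.8 and 31.5), and H2AC17 at -0.07 (1942 and 2290) and -0.20 (428 and 460). These differences were all under the single-spot SD. H4C4 was at -0.16 on both probes (506 and 559, and 476 and 527), the smallest gap of the 9 genes.

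**Figure D4:**
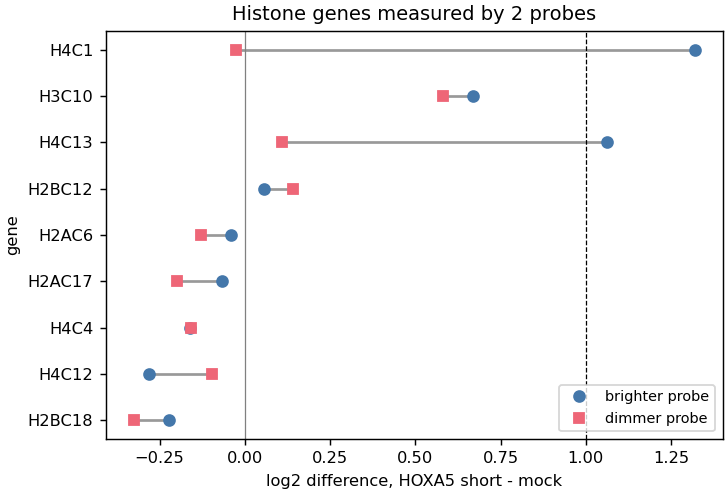
Log2 difference (HOXA5 short minus mock, x axis) of the brighter probe (circle) and the dimmer probe (square) of the 9 histone genes with 2 compared probes (y axis), with a dashed line at 2-fold higher. The probes lie close together except for H4C1 (1.32 and -0.03) and H4C13 (1.06 and 0.11).

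On chromosome 6 the histone genes fall into 3 blocks separated by more than 250 kb. The medians were -0.04 over 31 probes of the first block, which holds H2AC8, H2BC8, H4C1 and H3C4, 0.13 over 6 probes of the second, which holds H2AC11, and 0.04 over 17 probes of the third, which holds H4C13 and H3C10. On chromosome 1 they were 0.08 over 9 probes of the first block and -0.28 over the 2 probes of the second, H2AC25 and H2BC26. The last value rests on 2 dim probes.

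The genes not detected were H1-1, H1-5, H1-6, H2AC1, H2AC16, H2AC2P, H2BC1, H2BC6, H3C11, H4C7 and H4C16. Their signals lay between 1.55 and 8.09, and none was well above background on either array. H1-6, H2AC1 and H2BC1 are known as testis histone genes, and H2AC2P, counted above among the H2A genes, is a non-coding record. A second probe of H2BC21 was also not detected, while the first was at 12.3 ± 2.26 and 17.9 ± 2.69, a difference of 0.24. In all, 84.4% of the histone probes were detected, against 38.4% of all 50599 probes, which include those without a RefSeq symbol. By gene, 56 of 67 histone genes were detected, against 12577 of 21614 named genes. Because of the oligo(dT) primer, these shares do not compare levels of histone mRNAs with those of other genes.

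A few histone genes also make polyadenylated mRNA, and H1-2, H2AC6, H2BC5, H2BC12 and H2BC21 were described apart for this reason. Their median over genes was 0.10, from -0.08 for H2AC6 to 0.24 for H2BC21, with 3 higher and 2 lower. H2BC5 was at 0.23, with 219 ± 22.0 in mock cells and 317 ± 31.8 in HOXA5 short cells. None of them was past 1.5-fold, and they lay within the range of the other members.

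Genes that act on histone mRNAs and proteins also showed small differences, and none of 65 gene values in 5 further lists was past 2-fold. Of all named genes only 77 of 11994 (0.642%) were at least 2-fold higher, so 65 genes need not hold any. Of the 14 genes for histone mRNA transcription and 3′ processing, 11 were compared, of which 9 were higher and 2 lower, with a median of 0.10. SLBP was at 0.15, with signals of 1159 and 1591, and its spot lay in an uneven zone with 3 of 32 neighbors past 2-fold. CPSF3, the endonuclease that cuts the histone mRNA precursor, was the highest at 0.52, with 130 and 231. CASP8AP2 (FLASH), which joins the 3′ processing complex, was the lowest at -0.48, with 18.0 and 15.9, a dim spot. NPAT, the coactivator of histone gene transcription, was not among the genes compared. Of 8 genes of histone mRNA decay, 3 were higher and 5 lower, with a median of -0.04, from the exonuclease gene XRN1 at -0.37 (18.1 and 17.3) to the helicase gene UPF1 at 0.34 (760 and 1183).

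Among 11 of 12 histone variants, 4 were higher and 7 lower, with a median of -0.03. MACROH2A2 was the lowest at -0.32 (109 and 108). Of 15 histone chaperone and deposition genes, 6 were higher and 9 lower, with a median of -0.05. ATRX, which deposits H3.3 with DAXX, was lower on all 3 of its probes, with a mean of -0.50, and 1 of the 3 lay in an uneven zone. CHAF1A, the large subunit of the chromatin assembly factor that acts at replication forks, was the highest at 0.19. Its 2 probes disagreed, at 0.004 (1145 and 1417) and 0.38 (39.9 and 64.0). Of 20 S phase genes, 9 were higher and 11 lower, with a median of -0.02. CDC6, which loads the replicative helicase, was the lowest at -0.57 (34.9 and 29.1). PCNA, the sliding clamp of DNA polymerase, was the highest at 0.19, a mean over probes that disagreed, at -0.01, 0.78 and -0.21. With scaling to the median, the medians of the variants, the decay genes, the chaperones and the S phase genes turned to between 0.05 and 0.08, and with normexp those of the variants, the chaperones and the S phase genes turned to 0.10.

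**Figure D5:**
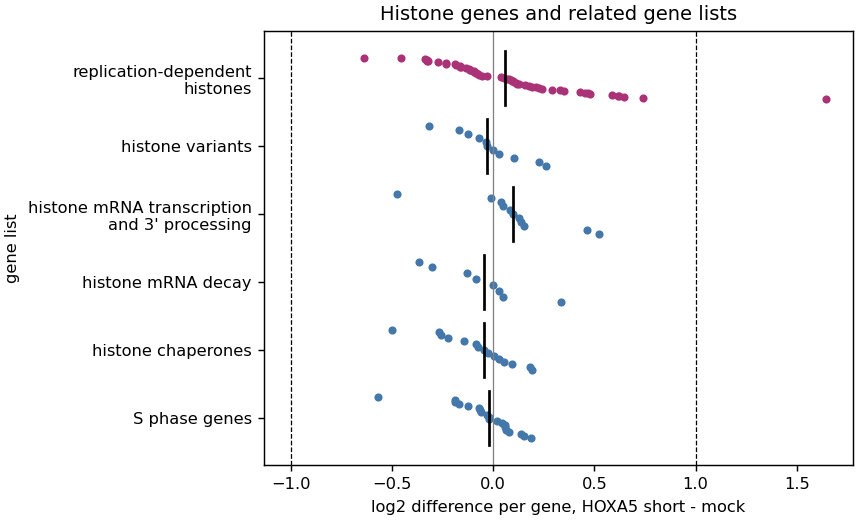
Log2 difference per gene (HOXA5 short minus mock, mean over the probes of a gene, x axis) for the 56 histone genes and 5 related lists (y axis), with the median of each list as a black bar and dashed lines at a 2-fold difference. The medians lie between -0.05 and 0.10, and H2AC8 at 1.64 is the only gene past a dashed line.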

How the data were processed

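Cy3-labeled RNA (400 ng of total RNA per labeling) of mock-transfected and HOXA5 short RNA-overexpressing HCT116 cells was measured on 1 Agilent SurePrint G3 array each. Per the file headers, Feature Extraction 11.5.1.1 read the spots, and the deposited scanner output gives background-corrected intensity on a linear scale with an error and flags per spot. A second deposited table with log2 values served as an alternative. The log2 intensity less the 75th percentile of non-control probes was computed per probe, and probes well above background on both arrays (17938) were compared. No spot was saturated. Every histone probe was printed in 1 spot.

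Accessions were matched without versions to RefSeq records of GRCh38.p14, which named 59.3% of the probes. The array files were annotated on an earlier build, so coordinates come from the RefSeq promoter table alone. Divergent pairs were H2A and H2B genes with start sites on opposite strands and at most 250 bases between them, the length that the windows hold before a start. Pairs farther apart, or with a gene without a window, could not be counted. A gene value was the mean of its probes. An uneven zone was a window of 9 by 9 spots with at least 10 well-measured neighbors, of which at least 2 and at least 5% were past 2-fold, a rule adjusted after the data were seen.

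The number of arrays limits the precision. With 1 array per group there was no test. The members, the lists of related genes, the markers and the rule for named genes were chosen with earlier results of these data known. Every member could be named, with full values for the 10 probes with the largest difference in each direction, the brightest probe of each family and genes with 2 probes, and of each related list the highest and lowest gene, SLBP and NPAT. The values of 1 gene of these lists are not reported here. Alternatives were other scalings (the median, detected probes, spike-ins), quantile and cyclic loess normalization (limma 3.58.1, R 4.3.3), normexp background correction (offset 50), the deposited log2 table, other filters, local subtraction, 1 value or the brightest probe per gene, and thresholds of 1.5-fold and 3-fold. Python 3.11.15 with pandas 2.3.3 did the rest, tested on simulated data first.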

Additional observations from a re-analysis of the deposited data

How the results depend on the processing

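The count of 3 histone probes at least 2-fold higher was 1 with normexp background correction, 1 with 1 value per gene, 7 with scaling to the spike-ins, 2 over signals above the median (without H2AC8), 2 with local subtraction, 4 with no filter, 6 at a threshold of 1.5-fold and 1 at 3-fold, and the count of probes lower was 1 at 1.5-fold. Scaling to the spike-ins shifted all probes by 0.47, so the histone median became 0.51, that of H1 0.59, H2A 0.43, H2B 0.52, H3 0.56 and H4 0.38, that of the variants 0.43, transcription and 3′ processing 0.57, decay 0.42, chaperones 0.42, S phase genes 0.44 and polyadenylated members 0.57. The histone median stayed 0.06 above that of all probes there, and over all settings it lay 0.01 to 0.12 above it. On its own scale the histone median was -0.03 with no filter, and that of H2B was -0.02 over signals above the median. The direction of single genes with a small difference depended on the scaling: of 56 genes, 8 changed side with scaling to the median, 10 with normexp, 6 with local subtraction and 25 with the spike-ins. No paired analysis was possible because there was 1 array per group, and no replicate could be left out. Dim spots limit what can be read: 7 histone probes had mock signals under 30. The normexp offset of 50 by itself makes the differences of such dim probes smaller.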
